A study of Homo sapiens with 19 samples.

Results

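The genes described here are the protein-coding members of 9 families of developmental transcription factors, chosen by gene name alone: every GENCODE release 44 gene on hg38 whose symbol begins with PAX, NKX, LHX, DLX, IRX, TBX, HOXB, HOXC or HOXD and a digit. There were 84 of them among 20015 protein-coding genes: 10 HOXB, 9 HOXC, 9 HOXD, 9 PAX, 14 NKX, 8 LHX, 6 DLX, 6 IRX and 13 TBX genes. The cells were MOLM-13, an established human acute myeloid leukaemia line, given either Corin or the vehicle DMSO. Corin is a dual inhibitor that acts on CoREST, a corepressor complex, through its demethylase LSD1 and its histone deacetylases. Treatment lasted 24 h at 0.1 µM, a dose that the labels also give for DMSO, where its meaning is unclear. CUT&RUN, in which an antibody-guided nuclease releases the chromatin that carries a mark, was done for H3K27ac, H3K4me2 and H3K4me3. There were 2 libraries per mark and treatment, 12 of the series' 19 libraries, and the 7 others (all-trans retinoic acid with Corin, LSD1 and IgG) were not analysed here. Nothing in the labels says that the libraries of a group came from separate cultures, so their spread may be technical.

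These factors bind DNA and set the identity of tissues in the embryo. HOX genes lie in clusters and pattern the body axis, PAX genes carry a paired domain, NKX, DLX, LHX and IRX genes are homeobox genes of neural, limb, heart and gut development, and TBX genes carry a T-box. In blood cells most of them are silent, commonly under Polycomb repression, and many have promoters rich in CpG dinucleotides. H3K4me2 marks promoters and enhancers and is removed by LSD1, H3K4me3 marks mostly promoters, and H3K27ac marks active promoters and enhancers.

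The deposited data are lists of peaks, 1 per library, from 17599 to 34424 for H3K27ac, 30896 to 41152 for H3K4me2 and 11104 to 11883 for H3K4me3. The labels state at least 5000000 reads per library, and depth is otherwise unknown. The Corin lists were the longer ones for each mark, the log2 ratio of the length they covered being 0.97 (H3K27ac), 0.36 (H3K4me2) and 0.08 (H3K4me3). Of 10 myeloid marker genes, 6 had an H3K27ac peak, 6 an H3K4me2 peak and 5 an H3K4me3 peak within 1 kb of the transcription start site (TSS) in both DMSO libraries, CEBPA and SPI1 among them for each mark. None of the T cell, B cell, erythroid and fibroblast or epithelial markers, 4 of each, had H3K4me3 or H3K27ac there, while CD79A, EBF1, CD8A and COL1A1 had H3K4me2. After Corin H3K27ac was higher in both libraries at 8 of the 9 covered myeloid markers (median log2 change 0.50) and at both covered B cell markers (1.59), 1 of which then had a promoter peak. Over all covered genes it was higher at 54.6%, and the median log2 change over all genes tested was 0.54. The part of the markers in the results below was not tested. The measure used below is the number of bp under peaks within 10 kb either side of the TSS. A peak counts as a promoter peak when it lies within 1 kb of the TSS in both libraries of a group.

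Promoter sequences of 7 members are shown, picked by hand: promoters in very different chromatin states that all hold many CpG dinucleotides. Their shared CpG content thus follows from the choice. Of the members without any peak, PAX4 held 7 CpG, TBX22 15 and TBX19 28 over 2 kb centred on the TSS. The sequences are the 250 bases before the RefSeq start on GRCh38.p14, written 5′ to 3′ on the strand of the gene, with each CpG in capitals. DLX2 and NKX2-3 had H3K4me2 and H3K4me3 but no promoter H3K27ac in either group. TBX6 had the same methylation marks and a promoter H3K27ac peak in both Corin libraries. PAX5 and LHX4 had H3K4me2 as their only promoter mark. IRX1 and PAX7 had no peak of any mark within 10 kb in any library. The stretches are DLX2 (chr2:172102901-172103150, minus strand), NKX2-3 (chr10:99532692-99532941, plus strand), TBX6 (chr16:30091925-30092174, minus strand), PAX5 (chr9:37034269-37034518, minus strand), LHX4 (chr1:180230014-180230263, plus strand), IRX1 (chr5:3595582-3595831, plus strand) and PAX7 (chr1:18630596-18630845, plus strand).
DLX2: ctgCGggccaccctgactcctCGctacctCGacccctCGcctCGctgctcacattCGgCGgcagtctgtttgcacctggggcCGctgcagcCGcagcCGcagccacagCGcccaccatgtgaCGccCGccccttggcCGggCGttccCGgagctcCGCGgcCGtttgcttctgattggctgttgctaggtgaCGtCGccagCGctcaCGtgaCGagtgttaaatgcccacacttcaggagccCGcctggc
NKX2-3: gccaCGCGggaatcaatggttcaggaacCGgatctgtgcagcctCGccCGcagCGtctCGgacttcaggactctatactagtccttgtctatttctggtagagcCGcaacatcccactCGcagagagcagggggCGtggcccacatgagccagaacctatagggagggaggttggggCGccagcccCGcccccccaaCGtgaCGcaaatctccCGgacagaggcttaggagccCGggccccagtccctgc
TBX6: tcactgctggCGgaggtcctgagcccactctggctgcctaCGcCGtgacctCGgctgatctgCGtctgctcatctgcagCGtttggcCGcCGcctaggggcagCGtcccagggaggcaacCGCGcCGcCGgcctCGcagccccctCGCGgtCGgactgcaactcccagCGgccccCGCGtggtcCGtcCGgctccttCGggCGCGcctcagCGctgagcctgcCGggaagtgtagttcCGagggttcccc
PAX5: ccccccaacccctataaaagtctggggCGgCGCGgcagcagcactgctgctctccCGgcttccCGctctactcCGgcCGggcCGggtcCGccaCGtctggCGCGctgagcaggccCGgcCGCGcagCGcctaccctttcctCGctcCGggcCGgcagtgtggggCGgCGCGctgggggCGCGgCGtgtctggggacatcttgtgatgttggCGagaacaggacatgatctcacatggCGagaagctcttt
LHX4: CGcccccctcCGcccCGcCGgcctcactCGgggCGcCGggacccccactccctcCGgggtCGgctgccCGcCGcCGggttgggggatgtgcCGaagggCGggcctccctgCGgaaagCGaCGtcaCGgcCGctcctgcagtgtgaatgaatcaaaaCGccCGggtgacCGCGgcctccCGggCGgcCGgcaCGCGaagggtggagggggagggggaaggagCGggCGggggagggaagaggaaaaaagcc
IRX1: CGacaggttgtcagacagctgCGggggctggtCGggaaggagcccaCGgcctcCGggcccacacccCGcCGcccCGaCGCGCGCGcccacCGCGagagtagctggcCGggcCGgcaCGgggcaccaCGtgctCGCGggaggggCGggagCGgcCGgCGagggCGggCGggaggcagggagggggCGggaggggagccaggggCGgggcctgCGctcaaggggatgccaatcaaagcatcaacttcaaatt
PAX7: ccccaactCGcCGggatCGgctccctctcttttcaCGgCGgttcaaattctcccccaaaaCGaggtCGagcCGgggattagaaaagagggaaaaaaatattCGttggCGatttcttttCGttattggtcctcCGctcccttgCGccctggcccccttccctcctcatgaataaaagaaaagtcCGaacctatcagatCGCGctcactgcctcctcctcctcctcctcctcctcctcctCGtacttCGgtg

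These 7 stretches held 16 to 30 CpG each: 25 in DLX2, 16 in NKX2-3, 28 in TBX6, 27 in PAX5, 30 in LHX4, 29 in IRX1 and 18 in PAX7. The unmarked IRX1 promoter thus held 29, against 25 in the DLX2 promoter, which lay under H3K4me2 and H3K4me3 in all 4 libraries of each mark. RefSeq promoters were matched for 50 of the 84 members. The letters CCAAT, a promoter element, occurred on either strand of the 250 bases in 26 of the 50 (52%), against 32% of the 35116 promoters of the table. TATAAA, the core of a TATA box, occurred in 2 members (4%) against 10.7%. GGGCGG, the core of a GC box, occurred in 24 (48%) against 42.6%, and AGGTCA, a nuclear receptor motif, in 2 (4%) against 12.1%. None of the 4 motifs is contained in another, and a match is a description of letters only.

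Over 2 kb centred on the TSS in hg38, the ratio of observed to expected CpG had a median of 0.689 over the 84 members and 0.613 over all genes. Among members with promoter H3K4me2 under DMSO the median was 0.751, and among members without it 0.654. The corresponding medians over all genes were 0.697 and 0.318. Of the 59 members without promoter H3K4me2, 36 (61%) reached a ratio of at least 0.6, against 22.5% of the 8669 genes of the genome without it. The windows of 10 kb either side held a median of 640.5 CpG per member and 336 per gene.

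The share of family genes near a peak was close to that of all genes for H3K4me2 and below it for the other marks. H3K4me2 lay within 10 kb of 56 of the 84 TSSs in at least 1 of its 4 libraries (66.7%), close to 70.3% of all genes. H3K4me3 did so for 18 members (21.4%) against 55.9% of all genes, and H3K27ac for 9 (10.7%) against 52.6%. No peak of any mark in any library lay near 28 members (33.3%), against 28.9% of all genes. These were HOXB1, HOXB2, HOXC12, HOXC13, HOXD4, HOXD10, IRX1, IRX2, IRX4, IRX6, LHX5, LHX8, NKX1-1, NKX1-2, NKX2-1, NKX2-5, NKX2-6, NKX2-8, NKX6-2, PAX1, PAX4, PAX7, PAX9, TBX5, TBX15, TBX18, TBX19 and TBX22. They include NKX2-5 and TBX5, factors of heart development, NKX2-1, a factor of lung and thyroid, and PAX7, a factor of muscle stem cells. Windows of 30 members overlap that of another member, chiefly in the HOX clusters, so members are not independent, and the 84 windows merge into 60 stretches of 1460 kb in all.

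**Figure D1:**
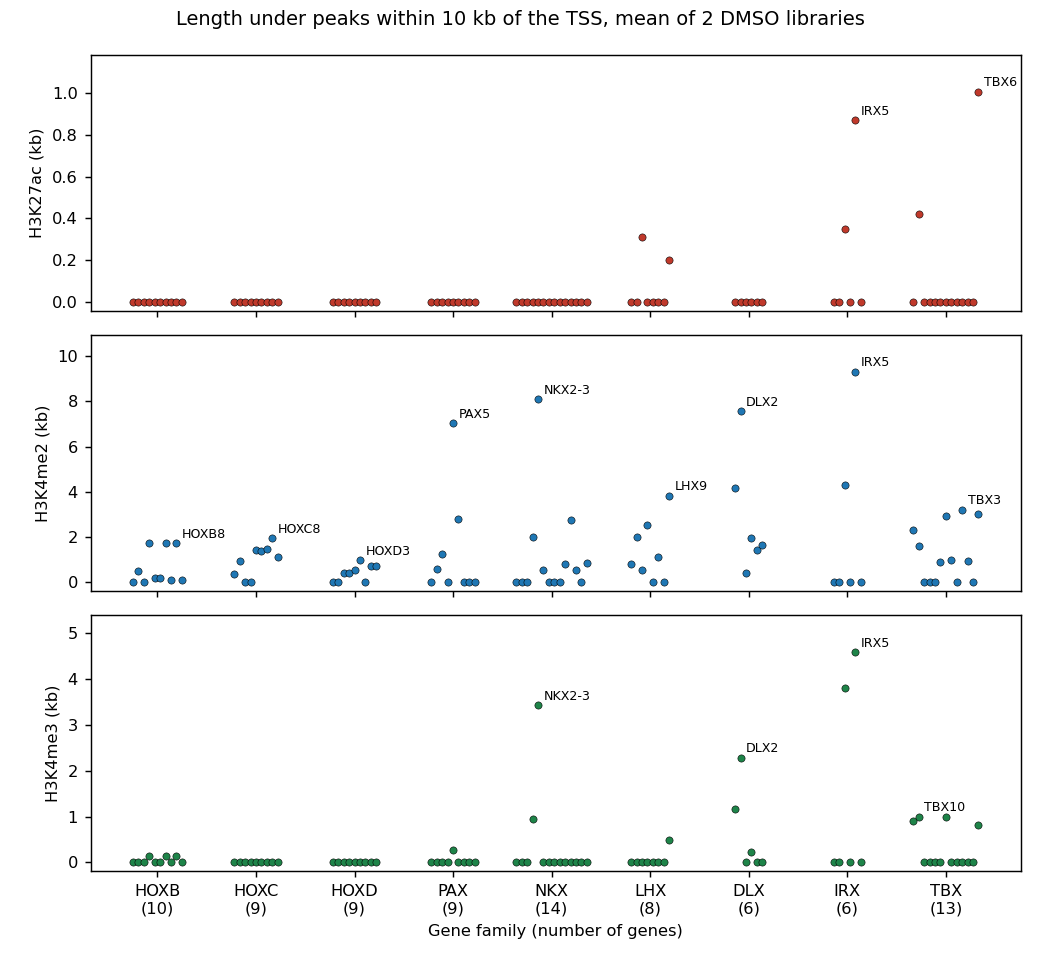
Length under peaks within 10 kb of the TSS (kb, mean of the 2 DMSO libraries) for each of the 84 genes (points) by family with the gene of the largest value named in most families. Most points lie at 0 for H3K27ac and H3K4me3, while H3K4me2 reaches 9306 bp at IRX5.

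At the promoter itself, 25 of 84 members (29.8%) had H3K4me2 under DMSO against 56.7% of all genes, 8 (9.52%) had H3K4me3 against 46.4%, and 1 (1.19%) had H3K27ac against 25%. IRX3 was the single promoter with all 3 marks. Its H3K27ac peaks did not overlap between the DMSO libraries, lying between 2 and 280 bp from the TSS in the first and at -537 to -336 and 578 to 798 bp in the second, and 0 members had promoter H3K27ac under DMSO with a peak score of at least 100, against 13.5% of all genes. DLX1, DLX2, DLX4, IRX5, NKX2-3, TBX6 and TBX20 had both methylation marks without H3K27ac. Another 17 had H3K4me2 alone, among them DLX5, DLX6, HOXC4, HOXC9, HOXD8, LHX1, LHX4, LHX6, NKX2-4, NKX3-2, NKX6-1, PAX5, TBX1, TBX3, TBX4 and TBX21. The other 59 had none, and no member had H3K4me3 or H3K27ac without H3K4me2. Of promoters with H3K4me2, 8 of 25 in the families (32%) also had H3K4me3, against 80.1% of the 11346 such promoters in the genome. The H3K27ac share was 1 of 25 (4%) against 43.2%. The same held peak by peak. Of the H3K4me2 peaks in member windows, 23.6% and 20.2% in the 2 DMSO libraries overlapped an H3K4me3 peak of the same replicate number, against 61.5% and 60.5% of the peaks in the windows of all genes. For H3K27ac the overlap was 6.94% and 8.33% against 34.6% and 41.6%. These shares describe 1 cell line, and counts of genes near each other are not independent.

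**Figure D2:**
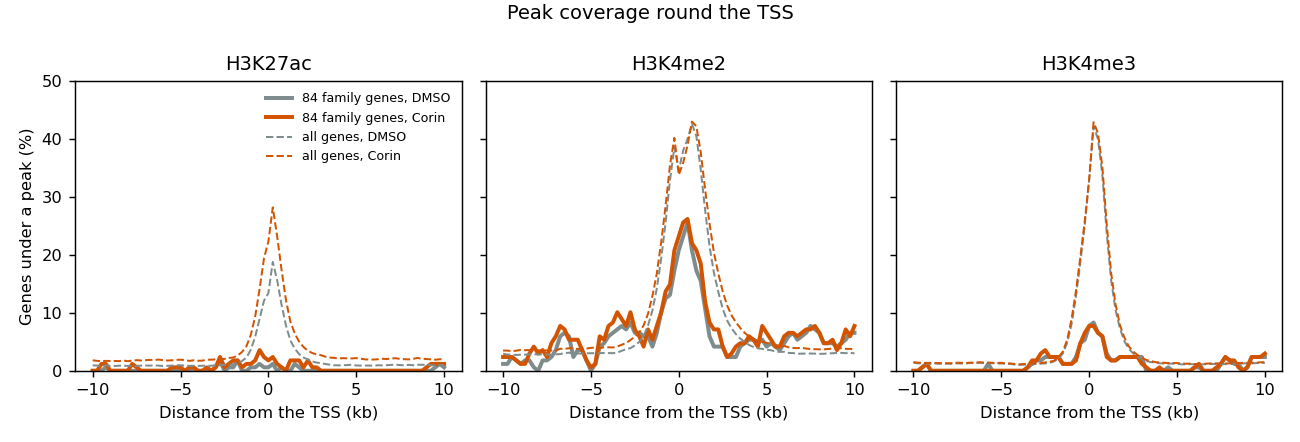
Percent of genes whose position at a given distance from the TSS (kb, along the gene's strand) lies under a peak, as the mean of 2 libraries, for the 84 family genes (thick lines) and all 20015 genes (dashed lines). At 250 bp after the TSS under DMSO, H3K4me3 covered 8.33% of family genes and 42.2% of all genes, and H3K4me2 covered 23.2% and 38%.

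H3K4me2 within the window often lay away from the TSS in these genes. It was present within 10 kb in both DMSO libraries for 49 members, of which 24 (49%) had no promoter peak, against 12.9% of the 13021 genes with H3K4me2 within 10 kb over the whole genome. Of the 24, 7 had some of it within 1 kb of another coding gene's TSS and outside 1 kb of the starts of their own basic coding transcripts. These were HOXC6, HOXC8, HOXD3, LHX9 and TBX10 in part, and HOXB13 and HOXD9 for all of it. HOXB3, HOXB6 and HOXB8 count 1 stretch that they share. Where the window held no other coding TSS, a comparison added after seeing the data, it was 11 of 32 members (34.4%) against 11.4% of 7649 genes. At PAX6, a factor of eye development, the peaks of the first DMSO library lay between 4752 and 8020 bp downstream of the TSS of the gene record. Another coding gene has its TSS 5570 bp downstream, within 1 kb of some of these peaks. PAX6 was not counted among the 7 because they also lie near starts of its own basic coding transcripts. At LHX9 and LHX2, LIM homeobox genes of gonad and forebrain, the gene record starts upstream of the TSS of basic coding transcripts. When every basic coding transcript's TSS was used, HOXB7, HOXC6, LHX2, LHX9 and PAX6 had a promoter peak as well and 30 members in place of 25 had one.

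The most H3K4me2 within 10 kb, summed over separate peaks, belonged to a handful of genes. IRX5, an Iroquois homeobox gene, had 8862 and 9751 bp in the DMSO libraries and 10129 and 9553 bp in the Corin libraries. NKX2-3, a homeobox gene of spleen and gut, had 8203 and 8000 bp, then 8321 and 8079 bp. DLX2, a distal-less gene of forebrain and jaw, had 7336 and 7780 bp, then 7729 and 7743 bp. NKX2-3 held 1 peak of 8203 bp in the first DMSO library, while IRX5 and DLX2 held 4 peaks in each DMSO library, 1 of those of DLX2 also lying partly in the window of DLX1. In all 3 the values of the treatments overlapped, and limma gave log2 changes of 0.08 (SE 0.08), 0.02 (SE 0.07) and 0.03 (SE 0.08). PAX5, the factor that commits cells to the B lineage, had 6709 and 7344 bp under DMSO and 7071 and 6847 bp after Corin. Its H3K4me3 was 0 and 550 bp, then 290 and 1110 bp, all of it upstream, between -3420 and -2311 bp from the TSS, and it had no H3K27ac peak in any library. The PAX5 sums come from 3 and 4 peaks in the DMSO libraries, and it had no promoter H3K4me3 in any library. IRX3 had 4432 and 4197 bp under DMSO, in 1 peak per library, and DLX1 had 4212 and 4104 bp.

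Over the windows of 10 kb either side, H3K4me3 did not separate the treatments at any of the 8 genes with a promoter peak. Within 1 kb of the TSS it did so at DLX2 alone of the 8, with 1516 and 1451 bp under DMSO and 1587 and 1536 bp after Corin. IRX5 had 4490 and 4684 bp under DMSO and 4600 and 5115 bp after Corin. IRX3 had 3732 and 3860 bp, then 3729 and 3818 bp. NKX2-3 had 2851 and 4007 bp, then 3702 and 3092 bp, and DLX2 had 2303 and 2272 bp, then 2152 and 3030 bp. In these 4 genes the libraries of the treatments interleaved. DLX1 had 1114 and 1223 bp, then 1583 and 1105 bp. TBX20, a T-box gene of the heart, had 1022 and 971 bp, then 932 and 1130 bp. TBX6, a T-box gene of the paraxial mesoderm, had 503 and 1109 bp, then 988 and 1110 bp. DLX4 had the least, 206 and 268 bp, then 286 and 210 bp. The groups overlapped in these 4 as well.

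Corin and DMSO were compared to ask where the marks lie once CoREST is inhibited. A member is called higher when both Corin libraries lie above both DMSO libraries, and lower in the opposite case. With 2 libraries against 2 the smallest exact permutation p is 0.333, so these counts are descriptions, read against the same share over all covered genes. H3K27ac was higher at 6 of the 9 covered members (66.7%), against 54.6% of all covered genes, and lower at 0, against 0.655%. H3K4me2 was higher at 22 of 56 (39.3%) against 39.5%, and lower at 3 (5.36%) against 3.83%. H3K4me3 was higher at 0 of 18 against 25.7%, and lower at 0 against 8.28%, but its higher count moved with single libraries. It was 8 of 18 without the first Corin library, 44.4% against 41.2% of all covered genes. It was 3 of 16 without the second Corin library (18.8% against 48.6%) and 7 of 18 without the second DMSO library (38.9% against 49.8%). Without the first DMSO library it stayed at 0 of 15, against 36.9%. The H3K27ac higher count became 3 of 6 at a matched number of peaks (35.3% of all covered genes) and 2 of 9 when scaled to the length each list covers (16.5%). It was 5 of 5 with a peak score of at least 100 (51.7%). Without the first Corin library it was 8 of 8 (69.7%), and without the second Corin library 7 of 7 (81.1%). It stayed at 6 of 9 without the first or the second DMSO library (63.4% and 70.6%). The H3K4me2 higher count became 36 of 56 without the second Corin library (66.5%) and 35 of 53 without the second DMSO library (66.6%). Its lower count became 14 of 56 without the first Corin library (19.7%), 14 of 56 without the first DMSO library (21.3%), 8 of 53 without the second DMSO library (7.97%) and 7 of 56 at a matched number of peaks (7.57%). In these settings the H3K4me2 counts moved in the same direction as the share of all genes, and for H3K27ac only 9 genes lie behind the member share.

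The model across all genes, limma with Benjamini-Hochberg adjustment on log2(bp + 500), called 0 members for each mark, and 0 of all genes tested (0%): 9051 for H3K27ac, 13551 for H3K4me2 and 10735 for H3K4me3. With the replicate number as a block, limma called 2 members for H3K27ac, IRX3 and IRX5, among 894 genes (9.88%), 0 members for H3K4me2 among 837 genes called higher (6.18%) and 1 lower, and 0 genes for H3K4me3. Without the block, at an unadjusted p under 0.05, limma had 2 of 7 members for H3K27ac, 10 of 51 for H3K4me2 and 0 of 13 for H3K4me3, against 25.6%, 14.3% and 6.87% of all genes. For H3K27ac the median log2 change was 0.90 over the 7 members and 0.54 over all genes. That member median is the value of PAX8, which had 0 bp in both DMSO libraries and 1246 and 0 bp after Corin. PAX8 thus entered the model through 1 Corin library alone. The H3K4me2 medians were 0.20 and 0.13, and those of H3K4me3 were 0.03 and 0.04. Dividing each library by the length that its whole list covers moved the median of all genes by -0.61 (H3K27ac), -0.29 (H3K4me2) and -0.06 (H3K4me3). The member medians were then 0.41, -0.06 and -0.02. On that scale H3K4me2 was higher at 8 members and lower at 19, in place of 22 and 3, and over all covered genes it was higher at 9.86% and lower at 45.9%.

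Summed over the merged member windows, H3K27ac covered 1715 and 4601 bp in the DMSO libraries and 11024 and 8530 bp in the Corin libraries. The means were 3158 ± 2041 bp (SD, n = 2) and 9777 ± 1764 bp (SD, n = 2), so that the log2 ratio was 1.63 (SD of the difference 1, exact two-sided permutation p = 0.333). At a matched number of peaks the log2 ratio was 0.71 and scaled to the covered length of each list it was 0.70. Without the first DMSO library it was 1.09 and without the second it was 2.51. H3K4me2 covered 87870 and 99660 bp, then 113019 and 102847 bp, giving a log2 ratio of 0.20 (SD 0.16, exact permutation p = 0.333). It turned to -0.15 when scaled to the covered length of each list. H3K4me3 covered 19623 and 22498 bp, then 21553 and 23454 bp, giving 0.10 (SD 0.16, exact permutation p = 0.667). Bp covered by separately called lists move with how much was called, and the member windows held 0.0155% and 0.0366% of the H3K27ac list under DMSO and 0.0422% and 0.0424% after Corin.

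IRX3 and IRX5 had the largest log2 changes of H3K27ac among the 7 members in the model. Both are Iroquois homeobox genes of chromosome 16, IRX3 at chr16:54283304-54286787 on the minus strand and IRX5 at chr16:54930865-54934485 on the plus strand, and their windows hold no other protein-coding TSS. IRX3 had 279 and 423 bp in the DMSO libraries and 2587 and 1285 bp in the Corin libraries. The DMSO libraries held 1 peak of 279 bp and 2 peaks of 221 and 202 bp, all within 1 kb of the TSS, and after Corin there were 4 peaks in each library, reaching to 2772 bp downstream in the first and 1940 bp in the second. IRX5 had 684 and 1054 bp under DMSO and 3113 and 2375 bp after Corin. Its DMSO peaks lay only upstream, between -3032 and -1639 bp from the TSS, within the H3K4me3 domain and beside the TSS of the long non-coding RNA CRNDE at -1676 bp, and the Corin peaks also reached the promoter, with 825 and 412 bp within 1 kb of the TSS, and a site between -7932 and -7385 bp. The groups did not overlap at either gene. The log2 change was 1.47 (SE 0.38) at IRX3 and 1.25 (SE 0.28) at IRX5, with limma adjusted p of 0.126 and 0.115. With the replicate number as a block, limma gave adjusted p of 0.0295 for IRX3 and 0.0256 for IRX5, beside 894 of the 9051 genes tested called higher (9.88%). With the same number of top-scoring peaks taken from each list, IRX3 had 279 and 202 bp, then 794 and 391 bp (log2 change 0.54), while IRX5 had 684 and 1054 bp, then 0 and 2146 bp, and its log2 change turned to -0.24. Scaled to covered length, both genes remained higher in both Corin libraries. Their H3K4me2 and H3K4me3 overlapped between treatments, with log2 changes of -0.09 (SE 0.12) and -0.01 (SE 0.06) at IRX3 and 0.08 (SE 0.08) and 0.07 (SE 0.07) at IRX5.

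**Figure D3:**
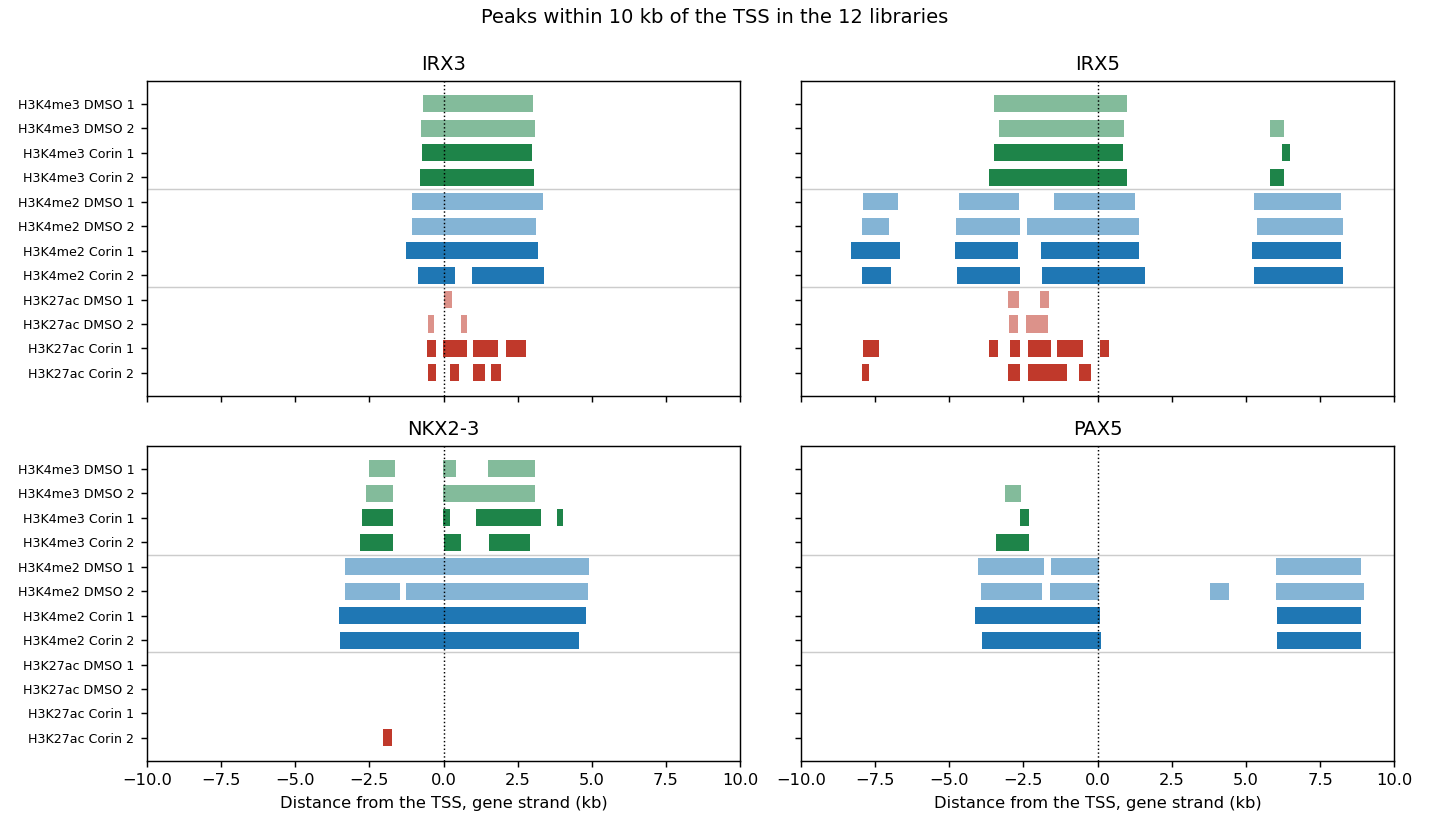
Peaks (bars) of IRX3, IRX5, NKX2-3 and PAX5 by distance from the TSS (kb, along the gene's strand) in the 12 libraries, paler for DMSO and darker for Corin, by mark. H3K27ac covers 279 and 423 bp at IRX3 under DMSO and 2587 and 1285 bp after Corin, while the windows of NKX2-3 and PAX5, with several kb of H3K4me2, hold 1 and 0 H3K27ac peaks.

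With IRX3 and IRX5, TBX6 made up the 3 members (3.57%) with promoter H3K27ac in both Corin libraries, against 1 under DMSO, while the share of all genes went from 25% to 35.9%. At a matched number of peaks it was 1 member in each group, IRX3 under DMSO and TBX6 after Corin, with 24% and 25.2% of all genes, and with a score of at least 100 it was 0 and then 1, TBX6, with 13.5% and 27.2%. TBX6 had 2170 and 2130 bp in the Corin libraries. Under DMSO it had 243 and 1768 bp, so that the DMSO libraries differed from each other by more than the Corin libraries did from the higher of them. A promoter peak of 1415 bp was already present in the second DMSO library and absent from the first. The log2 change was 1.03 (SE 0.52). At the matched number of peaks TBX6 had 243 and 1768 bp, then 1465 and 1886 bp, so that the groups overlapped, as they also did when scaled to covered length. At LHX3, a factor of pituitary and motor neurons, H3K27ac rested on a single upstream peak per library, of 235 and 383 bp, then 401 and 451 bp. The peak of the first DMSO library lay between -1971 and -1737 bp from the TSS and those of the other libraries between -2983 and -2491 bp, so the values compare different sites. At the matched number of peaks LHX3 had 235 and 383 bp under DMSO and 0 and 0 bp after Corin. Beside another coding gene's TSS lay the peaks in the windows of TBX10, with 274 and 570 bp, then 989 and 1226 bp, and LHX9, with 0 and 403 bp, then 518 and 529 bp. The NUDT8 TSS lies 9826 bp downstream of that of TBX10, and the C1orf53 TSS at -9272 bp, upstream of that of LHX9. Neither member had H3K27ac near its own start. Among the 62 members with no other coding TSS in the window, a comparison added after seeing the data, IRX3, IRX5 and LHX3 were the 3 that were higher, of 6 covered (50%), against 52.7% of the 5779 covered genes whose windows hold no other coding TSS.

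PAX8, a factor of thyroid and kidney, had no peak of any mark under DMSO within 10 kb of the TSS of the gene record. After Corin it had 1246 and 0 bp of H3K27ac and 736 and 399 bp of H3K4me2, none of it within 1 kb of an annotated coding TSS. The H3K4me2 log2 change was 1.08 (SE 0.35) with a limma adjusted p of 0.26. Without the second Corin library, limma called PAX8 for H3K27ac at an adjusted p of 0.0312, a fit that called 499 of 9051 genes higher (5.51%), leaves out the library where PAX8 has 0 bp and assumes that the lone Corin library varies like the others. At the matched number of peaks PAX8 had no H3K27ac in any library and H3K4me2 of 0 and 0 bp, then 534 and 0 bp. When every basic coding transcript's TSS was used, PAX8 H3K27ac was higher in both Corin libraries. Its 0 bp in the second Corin library thus holds for the window of the gene record alone. DLX1 and NKX2-3 each had H3K27ac in the second Corin library alone, of 215 and 319 bp, and none in any library at the matched number.

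**Figure D4:**
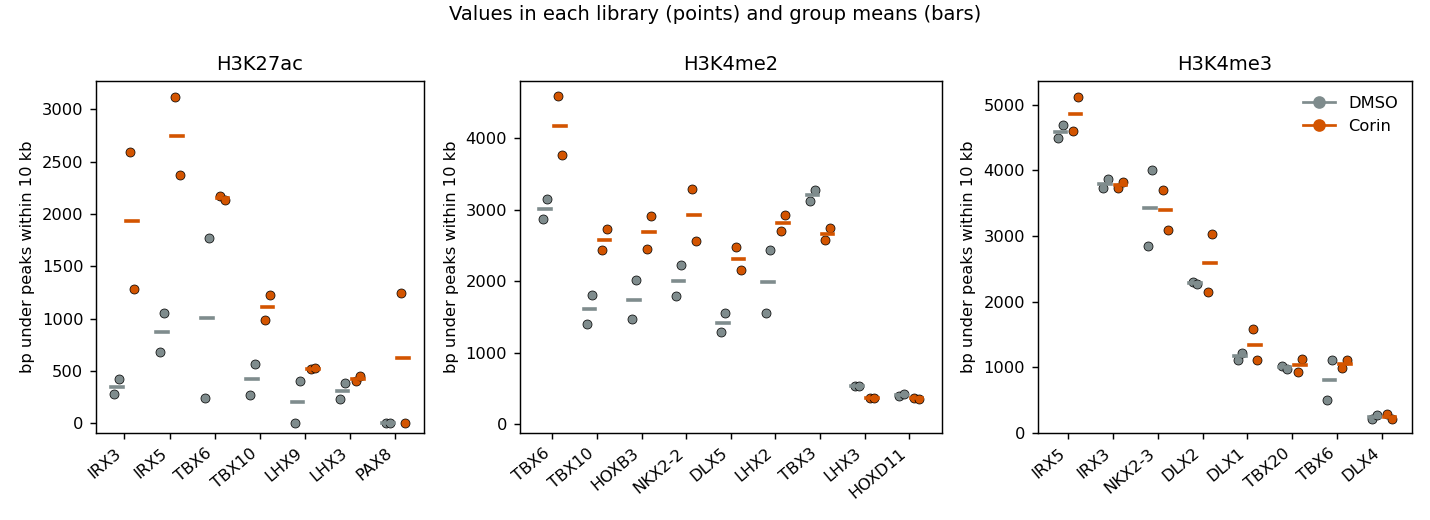
Bp under peaks within 10 kb of the TSS in each DMSO (grey) and Corin (orange) library (points) with group means (bars), for the genes picked by the naming rule and PAX8. The Corin points of IRX3 and IRX5 lie above both DMSO points for H3K27ac, while H3K4me3 points of the treatments overlap at all 8 genes.

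Among the 22 members with higher H3K4me2 after Corin, the largest difference in mean bp was at TBX6, which went from 2864 and 3150 bp to 4586 and 3758 bp. TBX10 went from 1403 and 1812 bp to 2440 and 2724 bp, none of it near its own start and a mean of 1015 bp under DMSO and 1175 bp after Corin beside the NUDT8 TSS. NKX2-2, a factor of ventral neural tube and pancreas, went from 1793 and 2223 bp to 3282 and 2556 bp. DLX5, a factor of bone and limb, went from 1284 and 1552 bp to 2471 and 2154 bp, and LHX2 from 1557 and 2431 bp to 2702 and 2924 bp. The groups did not overlap at any of these 5 genes, but none of them passed: the limma adjusted p was 0.249 for TBX6, 0.207 for TBX10, 0.314 for NKX2-2, 0.202 for DLX5 and 0.396 for LHX2. At the matched number of peaks TBX6, DLX5 and LHX2 stayed higher in both Corin libraries, and NKX2-2 and TBX10 did not, NKX2-2 with a log2 change of -0.14. Scaled to covered length, TBX6, DLX5 and TBX10 stayed higher, and NKX2-2 and LHX2 did not. NKX2-2 had no promoter peak under DMSO and had H3K4me2 of 553 and 241 bp within 1 kb after Corin. NKX2-2, NKX6-3, HOXC10, HOXC11 and HOXD13 had promoter H3K4me2 in both Corin but not both DMSO libraries, and NKX6-1 the reverse, so that 29 members had it after Corin (34.5%) against 58.3% of all genes. At the matched number of peaks 25 members had it under DMSO and 26 after Corin. NKX2-2 then kept only its peaks of 1851 and 1680 bp after Corin, which lie outside the promoter. NKX6-1 had 435 and 678 bp under DMSO and 1253 and 0 bp after Corin.

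H3K4me2 was lower after Corin at 3 members. TBX3, a T-box gene of limb and mammary gland, had 3120 and 3279 bp under DMSO and 2575 and 2737 bp after Corin, a log2 change of -0.23 (SE 0.11, limma adjusted p 0.44). LHX3 had 530 and 534 bp, then 362 and 364 bp, and HOXD11 had 395 and 417 bp, then 372 and 354 bp. At LHX3 the H3K4me2 values were thus lower and the H3K27ac values higher after Corin, and neither passed the test. After Corin the marks lay at different sites, H3K27ac between -2983 and -2491 bp and H3K4me2 between -1872 and -1504 bp from the TSS. At the matched number of peaks LHX3 H3K27ac was lower instead, with 235 and 383 bp, then 0 and 0 bp.

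The 3 HOX clusters of the set were sparsely marked. H3K4me2 covered 0.989% and 1.7% of the 200 kb HOXB cluster in the DMSO libraries and 1.91% and 2.27% in the Corin libraries. In the 117 kb HOXC cluster it covered 4.78% and 5.04%, then 5.98% and 4.81%, and in the 98.2 kb HOXD cluster 1.07% and 2.01%, then 2.39% and 2.06%. The treatments overlapped in HOXC and not in HOXB and HOXD, where the gap between the nearest libraries was small. These percents were not scaled to the length each list covers, whose log2 ratio was 0.36 for H3K4me2. None of the 3 clusters held an H3K27ac peak in any library, and H3K4me3 amounted to 1 peak of 288 bp in HOXB in the first DMSO library. HOXB3, HOXB6 and HOXB8 shared the same H3K4me2, 1465 and 2010 bp, then 2454 and 2908 bp, because 1 stretch lies in all 3 windows. HOXA, which is not among the families counted, is typically active in leukaemias with a KMT2A fusion, which MOLM-13 carries. It was covered over 41% and 42.1% of its 107 kb by H3K4me2 under DMSO and 44.1% and 42.3% after Corin, and its H3K27ac went from 6.23% and 11.3% to 18.9% and 17.4%. The HOXA percents were likewise not scaled, and the log2 ratio of the length covered by the whole H3K27ac lists was 0.97.

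**Figure D5:**
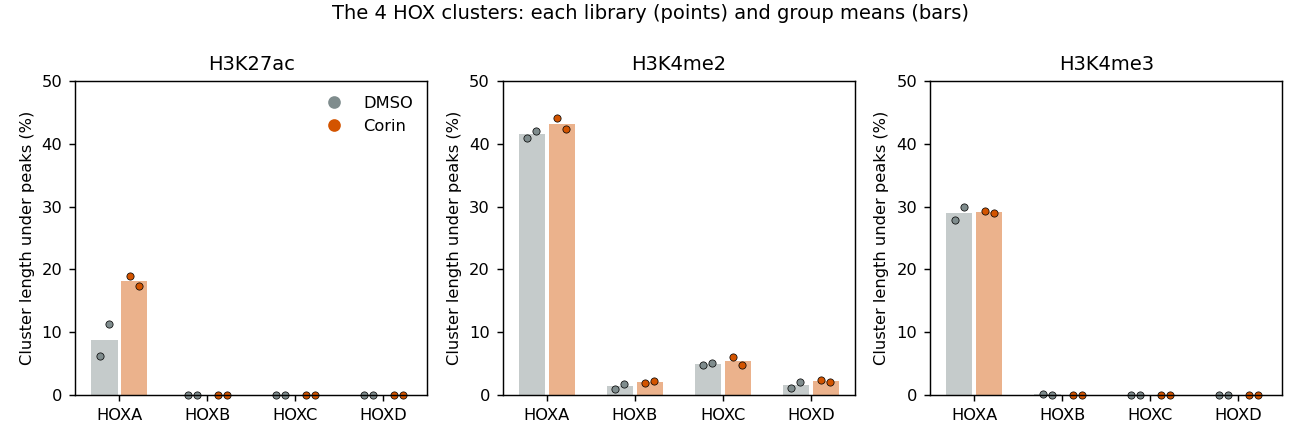
Percent of the length of each HOX cluster, from the first to the last gene, under peaks of each mark in each library (points) with group means (bars). HOXB, HOXC and HOXD lie at or below 5.98% for H3K4me2 and at or near 0 for the other marks, against 41% to 44.1% H3K4me2 in HOXA.

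Lists of related genes were set beside the families, with limma calling 0 genes in each for every mark. Of 59 other developmental factors, HOXA genes among them, 26 had promoter H3K4me2 under DMSO, 9 H3K4me3 and 1, WT1, H3K27ac. The shares of all genes are 56.7%, 46.4% and 25%. After Corin 6 had promoter H3K27ac. H3K27ac was higher after Corin at 9 of the 9 that were covered, several of them HOXA genes with overlapping windows, with a median log2 change of 1.22, and H3K4me2 was higher at 14 of 42 and lower at 1, against 54.6% (H3K27ac) and 39.5% (H3K4me2) of all covered genes. Of 9 HOX cofactors (MEIS, PBX and PKNOX genes, whose proteins bind DNA with HOX proteins), 7 had promoter H3K4me2, 5 H3K4me3 and 3 H3K27ac under DMSO. Of 26 Polycomb and trithorax regulators, which silence or maintain developmental genes, 25 had promoter H3K4me2, 20 H3K4me3 and 10 H3K27ac. H3K27ac was higher after Corin at 10 of the 21 that were covered and lower at 0, with a median log2 change of 0.50.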

How the data were processed

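Peak lists of 12 CUT&RUN libraries were used, 1 deposited list per library. Trim Galore, Bowtie2, Picard and MACS2 and the build hg38 are named per the submitters' processing notes, with no versions or settings, and the peak calling threshold and control are not given in the sources used here. The score that the authors deposited with each peak is a whole number of at least 50 whose definition is not stated, and it was used to order the peaks of a list and, in 1 alternative, as a common threshold of 100 in all lists, whose values may not be comparable between lists. The coordinates fit hg38, since 0 of 292523 peaks ran past a chromosome's end. Positions are counted from 1.

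For 20015 protein-coding genes (GENCODE release 44, without the mitochondrial chromosome and the Y copies of shared genes), bp under peaks within 10 kb of the TSS of the gene record were summed per library. Genes with a mean of at least 200 bp over the 4 libraries of a mark entered limma 3.58.1 (R 4.3.3, empirical Bayes with trend) on log2(bp + 500), a scale that understates changes of low values, with Benjamini-Hochberg adjustment over all of them and a threshold of 0.05. The script was tested on simulated data. Other tests were exact two-sided permutations over libraries. Promoter letters came from RefSeq and CpG content from hg38.

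Same-numbered Corin and DMSO libraries deviated together from their group means, with correlations of 0.32 (H3K27ac), 0.285 (H3K4me2) and 0.248 (H3K4me3), and the numbers were therefore read as pairing them. The main fits and permutation tests are nevertheless unpaired, and the block is an alternative given beside a result where it changes the call. What same-numbered libraries share is not labelled, and with 2 libraries per group both pairs of a mark give 1 correlation.

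Values in every library are given for members with promoter H3K4me3 under DMSO and, for each mark, for the 6 members whose mean bp rose most and the 3 whose mean bp dropped most among those whose treatments do not overlap, keeping 1 of overlapping windows. PAX8, the genes with the most H3K4me2 and single values elsewhere were named after their values were seen. The members, lists and rules were chosen with earlier results of these data known. Alternatives were other windows, start sites, peak sets, scalings, pseudocounts and filters, a replicate block, further genes added to the members, and each library left out. Some items are not reported here.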

Additional observations from a re-analysis of the deposited data

How the results depend on the processing

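With the replicate number as a block, limma called 2 members higher for H3K27ac (IRX3 and IRX5) in place of 0, and the block changed no other call of a member. Leaving out each library in turn gave 0 to 1 called members for H3K27ac. The members with higher H3K27ac, 6 in all, became 3 at a matched number of peaks (35.3% of all covered genes, as with each percent here), 2 when scaled to covered bp (16.5%) and 3 in windows without another coding TSS (52.7%), an alternative chosen after seeing the data, and 1 member was lower at a matched number of peaks (3.51%). Promoter H3K27ac in both DMSO libraries was at 0 members with a score of at least 100 and at 2 with all basic TSSs, and in both Corin libraries at 1 with either matched peaks or a score of at least 100. Members with higher H3K4me2, 22 in all, were 8 when scaled (9.86%) and ranged from 23 to 36 with each library left out (47.1% to 66.6% of all covered genes). Members with lower H3K4me2 were 7 at a matched number of peaks (7.57%), 19 when scaled (45.9%) and 3 to 14 with each library left out (7.16% to 21.3%). The summed H3K4me2 ratio turned to -0.15 when scaled. Members with higher H3K4me3 were 1 with all basic TSSs (26.1%) and 0 to 8 with each library left out (36.9% to 49.8%), and members with lower H3K4me3 were 1 at a matched number of peaks (DLX4, 9.18%), 1 when scaled (IRX3, 19.8%) and 2 to 4 with each library left out (18.2% to 26.6%). Members with higher H3K27ac were 6 to 8 with each library left out (63.4% to 81.1%). With 1 library in a group, separation is easier to meet, since fewer values must lie apart. The summed H3K27ac ratio of 1.63 ranged from 0.70 when scaled to 2.51 without the second DMSO library, within its SD. Members with higher H3K4me2 were 15 at a matched number of peaks (31.3%) and 16 with windows of 5 kb (35.3%). Over all genes, limma called between 0 and 894 genes higher for H3K27ac and between 0 and 837 for H3K4me2, the highest with the block. Where not stated, the cause was not tested. Peak lists hold no reads, so a region without a peak is one not called at this depth.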
